A study of Rattus norvegicus with 30 samples.

Results

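Hepatocytes differ by their place in the liver lobule, and 10 genes that mark either end of that axis were followed through phenobarbital treatment of cultured rat hepatocytes. The pericentral set held Cyp2e1, Glul, Gulo, Rgn and Nt5e, and the periportal set held Hsd17b13, Pigr, Cyp2f4, Cdh1 and Hal. Members were taken as every probe set (a group of short oligonucleotides that reads 1 transcript) whose only annotated gene symbol was 1 of these 10. That gave 14 probe sets for 10 genes, of 31042 probe sets and 14217 named genes on the array, 8 probe sets for the pericentral and 6 for the periportal genes. Glul had 3 probe sets, Gulo and Cdh1 had 2 each, and the others had 1. A gene with several was represented by the probe set with the highest mean, and values of the others are given where their calls differed from it. Of the 14 probe sets, 13 passed the filter on low signals. The second Cdh1 probe set, with signals of 1.01 to 93.5, did not.

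Primary hepatocytes of male Sprague Dawley rats were bought frozen, plated on collagen under Matrigel and dosed on day 3 of culture. The 6 groups of 5 wells received 300 µM phenobarbital, 3000 µM phenobarbital or vehicle, and were harvested after 24 h or 48 h. The vehicle is labelled as water in the titles and as culture medium in another field. All groups share the strain, the sex, the culture and 1 array per well. No animal or donor numbers are given, so spread between wells cannot be assigned to cultures or to animals.

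Blood enters the lobule at the portal triad, rich in oxygen and nutrients, and leaves at the central vein. Wnt signalling through beta-catenin, strongest near the central vein, sustains pericentral genes such as Glul and Cyp2e1, whereas periportal cells carry out much of the gluconeogenesis, ureagenesis and amino acid breakdown. Isolated hepatocytes are a mixture of cells from all positions and lose that architecture in culture. Phenobarbital is an indirect activator of the constitutive androstane receptor CAR and a standard inducer of drug-metabolising enzymes in the liver.

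Array medians lay between signals of 349 and 424.9, and log2 signals of wells within a group correlated at r = 0.951 to 0.981 over the 16596 tested probe sets. The hybridisation controls, 9 probe sets, stood 1.33 above the median of the other arrays on the log2 scale in 3000 µM 48 h well 4 and 0.91 above it in vehicle 24 h well 1, against -0.22 to 0.12 on the other arrays. Hepatocyte markers were high throughout: all 7 measured on the array were tested. Of the measured markers, 1 of 6 for cholangiocytes (Epcam), 7 of 9 for macrophages, 5 of 11 for stellate cells and fibroblasts, 1 of 8 for endothelial cells and 1 of 8 for lymphocytes passed the filter. The lowest of the cholangiocyte markers had a group mean signal of 13.8 to 30.5.

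Promoter sequence could be set beside the values for 7 of the 10 genes. The RefSeq table for rat assembly GRCr8 held 8 entries for these 7, each reaching 250 bases before and 50 bases after a gene's start. Both strands were searched for 5 short motifs, none of which contains another. The letters AGGTCA, a half-site bound by nuclear receptors, are in 16.2% of all 33469 promoters of the same length. CTTTGA, the core bound by TCF/LEF factors, the partners of beta-catenin, is in 16.1%, GTTAAT (HNF1) in 7.45%, TTGCAA (C/EBP) in 5.87% and GCGTG (AhR core) in 29.7%. The 4 stretches below are the 250 bases before the starts of Cyp2e1, Rgn, Hsd17b13 and Cyp2f4, chosen as a falling and a rising pericentral gene and a pair of falling periportal genes, with motif matches in capitals, each 5′ to 3′ on the gene's strand.
Cyp2e1 promoter, chr1:205269717-205269966, plus strand: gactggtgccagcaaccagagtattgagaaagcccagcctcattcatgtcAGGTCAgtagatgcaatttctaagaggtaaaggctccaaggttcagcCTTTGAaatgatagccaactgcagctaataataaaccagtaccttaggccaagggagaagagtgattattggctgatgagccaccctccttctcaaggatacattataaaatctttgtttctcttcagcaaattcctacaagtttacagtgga
Rgn promoter, chrX:4187958-4188207, minus strand: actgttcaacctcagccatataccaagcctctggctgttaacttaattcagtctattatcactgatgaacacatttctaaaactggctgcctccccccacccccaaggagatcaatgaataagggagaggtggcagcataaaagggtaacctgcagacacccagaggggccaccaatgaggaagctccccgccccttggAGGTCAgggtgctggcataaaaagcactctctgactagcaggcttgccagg
Hsd17b13 promoter, chr14:6056539-6056788, plus strand: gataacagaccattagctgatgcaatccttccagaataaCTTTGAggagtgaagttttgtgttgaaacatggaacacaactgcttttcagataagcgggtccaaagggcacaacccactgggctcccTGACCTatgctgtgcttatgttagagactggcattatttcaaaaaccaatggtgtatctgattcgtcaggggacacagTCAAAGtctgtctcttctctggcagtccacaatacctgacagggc
Cyp2f4 promoter, chr1:91543518-91543767, plus strand: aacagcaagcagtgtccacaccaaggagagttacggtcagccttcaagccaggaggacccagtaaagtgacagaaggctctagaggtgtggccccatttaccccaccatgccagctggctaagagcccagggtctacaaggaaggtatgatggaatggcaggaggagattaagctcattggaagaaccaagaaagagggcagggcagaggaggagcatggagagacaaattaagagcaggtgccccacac

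Cyp2e1 held AGGTCA 200 bases and CTTTGA 153 bases before its start. Rgn held AGGTCA 51 bases before its start. Hsd17b13, a periportal gene, held CTTTGA at 211 and, on the opposite strand, at 45 bases, and AGGTCA on the opposite strand at 123 bases. No motif was found in the Cyp2f4 window or in that of Pigr, 1 of 2 Glul entries held CTTTGA 229 bases before the start on the opposite strand, and Nt5e held GCGTG at 180 and 215 bases. CTTTGA was thus in windows of both zones, for 2 of 4 pericentral and 1 of 3 periportal genes. These are matches of letters, and binding was not measured.

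The higher dose moved genes of both zones, mostly downward. At 24 h with 3000 µM, 7 of the 10 genes were lower than in vehicle wells, 3 of 5 pericentral and 4 of 5 periportal, and only Rgn was higher. Over all tested probe sets 14.8% were lower and 17.3% higher in that comparison (limma, adjusted p under 0.05, the threshold used throughout). At 48 h with 3000 µM, 6 genes were lower, 3 in each zone, and Glul, Rgn and Hal were higher, beside 19.9% lower and 19.5% higher of all probe sets. The median change of the 5 pericentral genes was -0.65 at 24 h and -0.50 at 48 h on the log2 scale. That of the 5 periportal genes was -0.54 at 24 h and -0.73 at 48 h, and that of all tested probe sets was within 0.01 of 0 at both times. In bulk RNA, fewer cells of a type and less RNA per cell cannot be told apart.

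The lower dose moved few of them. With 300 µM at 24 h, Cyp2e1, Hsd17b13 and Pigr were lower and none was higher, beside 1.27% lower and 1.72% higher of all probe sets. With 300 µM at 48 h, Cdh1 alone was lower, beside 0.723% lower and 0.813% higher. The hepatocyte markers moved as well. With 3000 µM at 24 h, 5 of 7 were lower, with summed signals of 378473 to 409987 against 443714 to 592130 in vehicle wells. With 300 µM at 24 h none of the 7 passed, but their sums were 356852 to 445795. Their median log2 change was -0.24 with 300 µM and -0.27 with 3000 µM at that time. At 48 h 2 of 7 were lower with 3000 µM, with sums of 367018 to 627582 against 383467 to 460268 in vehicle wells. None of these markers passed with 300 µM at 48 h, with sums of 383065 to 450713. Their part in the members' values was not tested.

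**Figure D1:**
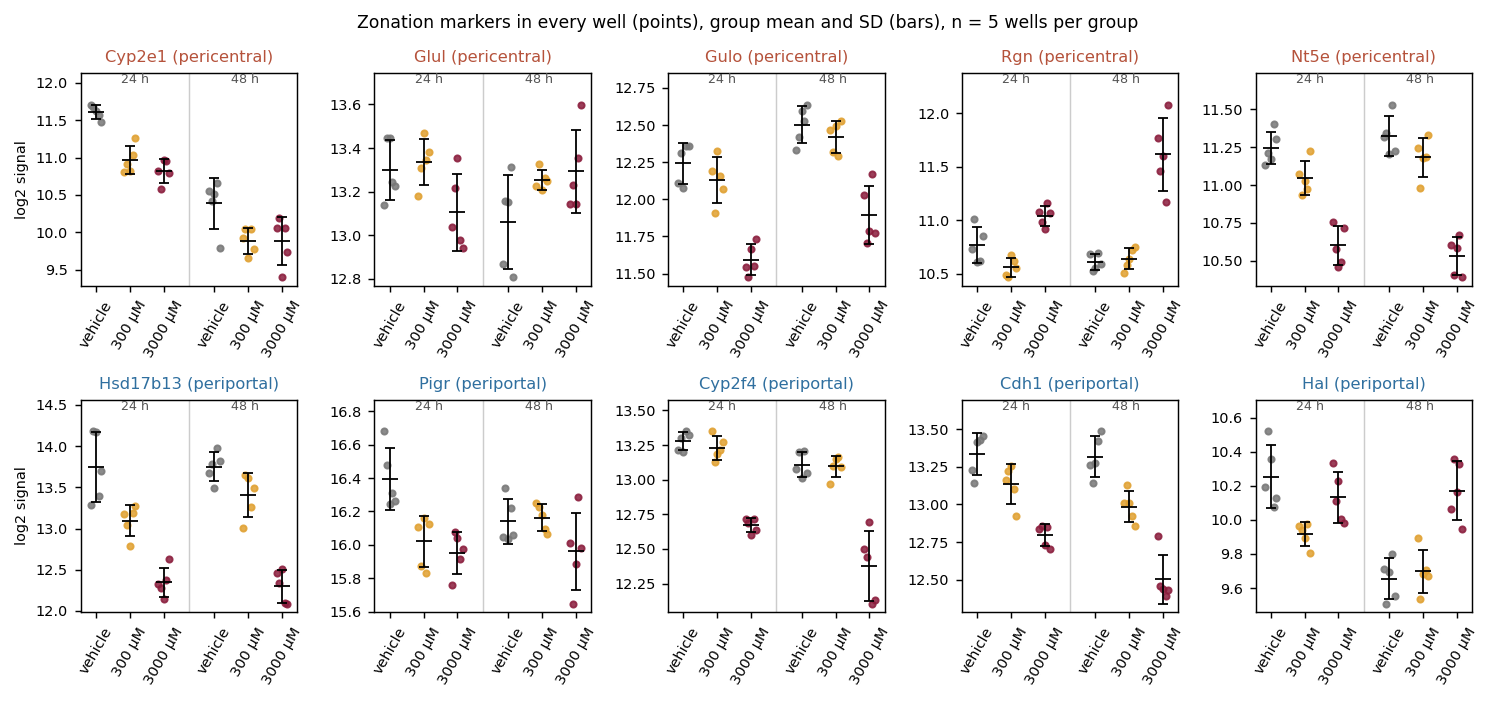
Signal of the main probe set of each of the 10 marker genes in every well, by dose and time, 5 wells a group, with pericentral genes in the upper row and periportal genes in the lower. Rgn stands apart in the 3000 µM 48 h wells, at 2312 to 4328, and Hsd17b13 at 4354 to 5810.4, against 1476 to 1664 and 11551 to 16153 in the vehicle 48 h wells.

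**Figure D2:**
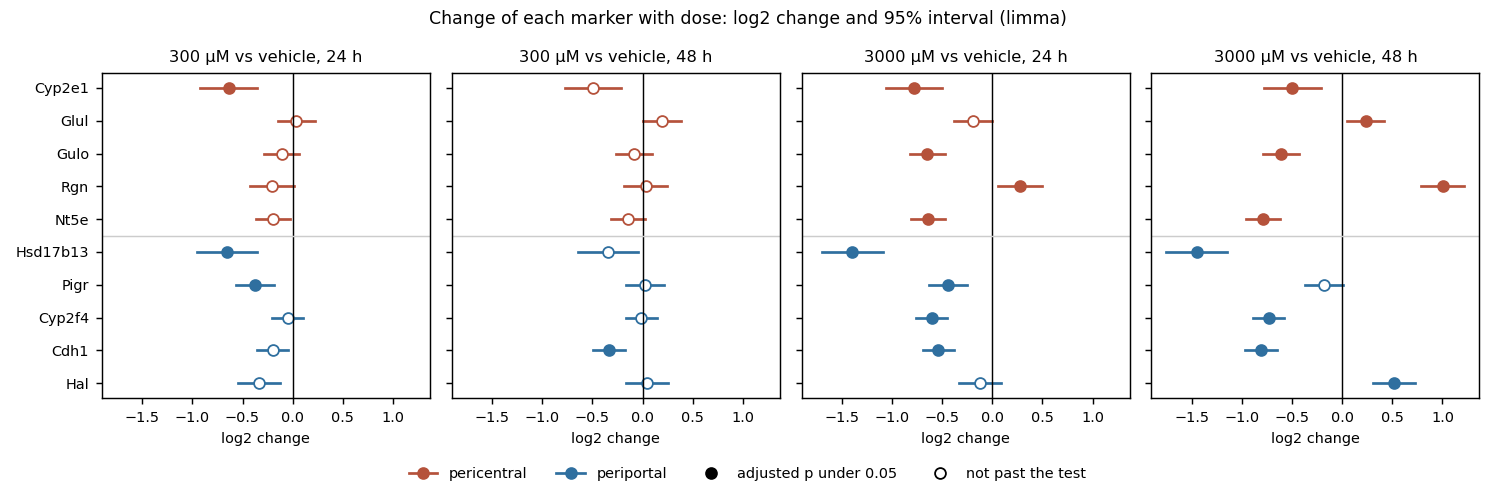
Fitted log2 change of each marker gene against vehicle at each dose and time, with 95% intervals from limma; filled points passed the adjusted p threshold. Hsd17b13 has the lowest value of the 10 genes at 3000 µM, -1.40 at 24 h and -1.45 at 48 h, and Rgn at 48 h the highest, 1.00.

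Cyp2e1, a cytochrome P450 that oxidises ethanol, acetaminophen and other small molecules, was the pericentral gene that responded to both doses at 24 h. Its signals at 24 h were 3338, 3271, 3137, 3033 and 2841 in vehicle wells, 1795, 1932, 1799.8, 2099.5 and 2451 with 300 µM and 1811, 1528, 2009, 1981 and 1771 with 3000 µM. Every treated well was below every vehicle well, and the ranges of the doses overlapped. limma gave log2 changes of -0.64 ± 0.14 (SE; adjusted p 0.00551) with 300 µM and -0.78 ± 0.14 (adjusted p 3.14e-05) with 3000 µM. At 48 h the signals were 1498, 1371, 1459.9, 1624 and 884 in vehicle wells, 973, 1059, 806, 1059.7 and 877 with 300 µM, and 1067, 1169, 676, 1071 and 852 with 3000 µM. Vehicle well 5 at 48 h lay among the treated wells, and the other 4 lay above all of them.

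The Cyp2e1 change at 48 h was -0.50 with 3000 µM (adjusted p 0.00409) and -0.50 with 300 µM, which did not pass (limma, adjusted p 0.0575). Without vehicle well 5 the 300 µM value was -0.65 with an adjusted p of 0.00324. Between the doses, 3000 µM minus 300 µM was -0.14 at 24 h (95% interval -0.42 to 0.14) and 0.00 at 48 h (-0.28 to 0.28). The larger change was with time: Cyp2e1 fell at 48 h relative to 24 h in all 3 treatments, with log2 changes of -1.22 in vehicle wells (limma, adjusted p 1.98e-07), -1.08 with 300 µM (adjusted p 1.87e-06) and -0.93 with 3000 µM (adjusted p 9.34e-06).

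Gulo and Rgn belong to the rat pathway of vitamin C synthesis, a pathway known to be stimulated by barbiturates in that animal. Rgn, regucalcin, has the lactonase activity that forms gulonolactone, and Gulo, gulonolactone oxidase, carries out the last step. They moved in opposite directions at 3000 µM. Gulo signals at 24 h were 4419, 5075, 4312, 5243 and 5255 in vehicle wells, 4669.9, 3851, 5141, 4566 and 4308 with 300 µM, and 2981, 2845, 3249, 3001 and 3399 with 3000 µM. The 3000 µM wells lay below all others, and the 300 µM wells overlapped the vehicle wells.

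At 48 h Gulo signals were 5155, 5491, 6194, 5909 and 6370.5 in vehicle wells, 5650.5, 5102, 5766, 5021 and 5896 with 300 µM, and 4172, 3345, 3539, 4600.1 and 3499 with 3000 µM. Gulo fell with 3000 µM, with log2 changes of -0.65 ± 0.086 (SE) at 24 h (adjusted p 3.42e-07) and -0.61 ± 0.086 at 48 h (adjusted p 6.38e-07) in limma. Its second probe set gave -0.56 (adjusted p 5.21e-05) and -0.34 (adjusted p 0.00827). That probe set was also lower with 300 µM at 24 h (-0.36, limma adjusted p 0.0486), where the main one gave -0.11 (adjusted p 0.624).

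Rgn signals at 24 h were 1699, 2065, 1569, 1574 and 1854 in vehicle wells, 1442, 1416, 1633, 1570.0 and 1505 with 300 µM, and 2167, 2029, 1939, 2292 and 2144 with 3000 µM. The 3000 µM range overlapped the vehicle range through vehicle well 2. At 48 h they were 1646, 1476, 1504, 1664 and 1543 in vehicle wells, 1455, 1539, 1594, 1691 and 1727 with 300 µM, and 3481, 2812, 3108, 2312 and 4328 with 3000 µM, with every 3000 µM well above every other well. Rgn was 2.01-fold higher with 3000 µM at 48 h (log2 change 1.00 ± 0.11 SE, adjusted p 2.32e-09). The 24 h change of 0.28 ± 0.11 (adjusted p 0.0438) lost its call in 10 of 21 alternative settings, in which its adjusted p reached 0.109, among them leaving out any of vehicle wells 1, 3 and 4 or 3000 µM wells 1, 2, 4 and 5. The effect of 3000 µM was larger at 48 h than at 24 h by 0.73 (limma interaction, adjusted p 0.00518).

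The other enzymes of the vitamin C list, which holds 5 genes with Gulo and Rgn among them, all tested, did not share 1 direction either. Beside this and the later list counts with 3000 µM stand 14.8% lower and 17.3% higher of all probe sets at 24 h. At 48 h the shares are 19.9% lower and 19.5% higher. For list counts with 300 µM they are 1.27% lower and 1.72% higher at 24 h, and 0.723% lower and 0.813% higher at 48 h. Ugp2, which makes UDP-glucose, was lower with 3000 µM (log2 change -0.74 at 24 h and -0.52 at 48 h), while Ugdh, which oxidises UDP-glucose, was higher (0.16 and 0.29). Akr1a1, the aldehyde reductase that forms gulonate, was higher at 48 h (0.22) and is named because it was the remaining called member. The list thus had 2 higher and 2 lower at 24 h, and 3 higher and 2 lower at 48 h, with medians of -0.04 and 0.22. With 300 µM only Ugdh passed, at 48 h, with a log2 change of 0.20.

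Nt5e encodes CD73, the cell-surface enzyme that turns extracellular AMP into adenosine. Its signals at 24 h were 2247, 2373, 2312, 2708 and 2526 in vehicle wells, 2151, 1959, 2082, 2012 and 2396 with 300 µM, and 1728, 1525, 1409, 1442 and 1684 with 3000 µM. Nt5e at 48 h had 2550.4, 2598, 2361, 2960.4 and 2394 in vehicle wells, 2424, 2016, 2319.7, 2326 and 2574 with 300 µM, and 1554, 1353, 1535, 1631 and 1340.5 with 3000 µM. At both times all 3000 µM wells were below all wells of the other groups, and 300 µM overlapped vehicle. limma gave -0.65 ± 0.084 at 24 h (adjusted p 2.26e-07) and -0.79 ± 0.084 at 48 h (adjusted p 2.14e-09) for 3000 µM.

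Of 7 tested genes of extracellular ATP and adenosine handling, Nt5e among them, 1 was higher and 2 lower with 3000 µM at 24 h. At 48 h 2 were higher and 3 lower. Ada, which deaminates adenosine, was higher (log2 change 0.55 at 24 h and 0.60 at 48 h), and Adk, which phosphorylates it, was lower (-0.44 and -0.29). Entpd2, an ATP-splitting surface enzyme, was higher at 48 h (0.45). Nt5e is also found on fibroblasts, and none of the 5 tested stellate cell and fibroblast markers passed in either comparison. The summed signal of that list was 2720 to 3454 with 3000 µM against 3416 to 4359 in vehicle wells at 24 h, and 3341 to 4223 against 3627 to 4639 at 48 h. Its part in the Nt5e values was not tested.

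Glul, glutamine synthetase, which in the liver is made in the last rings of cells around the central vein, had the smallest changes of the pericentral genes with 3000 µM. Main probe set signals at 24 h were 9018, 11171, 11148, 9712 and 9578 in vehicle wells, 9278, 10159.8, 11326, 10423 and 10680.1 with 300 µM, and 8406, 9527, 10482, 8072 and 7861 with 3000 µM. At 48 h they were 7470.4, 9149.9, 9122, 10175 and 7167 in vehicle wells, 9572, 10274, 9471, 9841 and 9739 with 300 µM, and 9059.9, 9606, 9039, 10473 and 12407 with 3000 µM. The ranges overlapped between all 3 treatments at each time.

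With 3000 µM at 48 h the Glul log2 change was 0.23 ± 0.091 (limma, adjusted p 0.0412) on the main probe set and 0.24 ± 0.071 (adjusted p 0.00691) on the second. The third probe set gave 0.06 (adjusted p 0.553). The call on the main probe set was lost in 9 of 21 alternative settings, in which its adjusted p reached 0.177, among them leaving out 3000 µM well 4 or 5 or vehicle well 1 or 5. At 24 h the change was -0.19 (adjusted p 0.106). Of 5 tested genes of glutamine synthesis, breakdown and transport, Slc7a5, a transporter of large neutral amino acids, had the highest change with 3000 µM, 1.18 at 24 h and 1.12 at 48 h. Slc38a2, a glutamine transporter, was higher at 24 h (0.27) and lower at 48 h (-0.21). The list, with Glul among its genes, had 2 higher and 0 lower at 24 h, and 2 higher and 1 lower at 48 h.

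**Figure D3:**
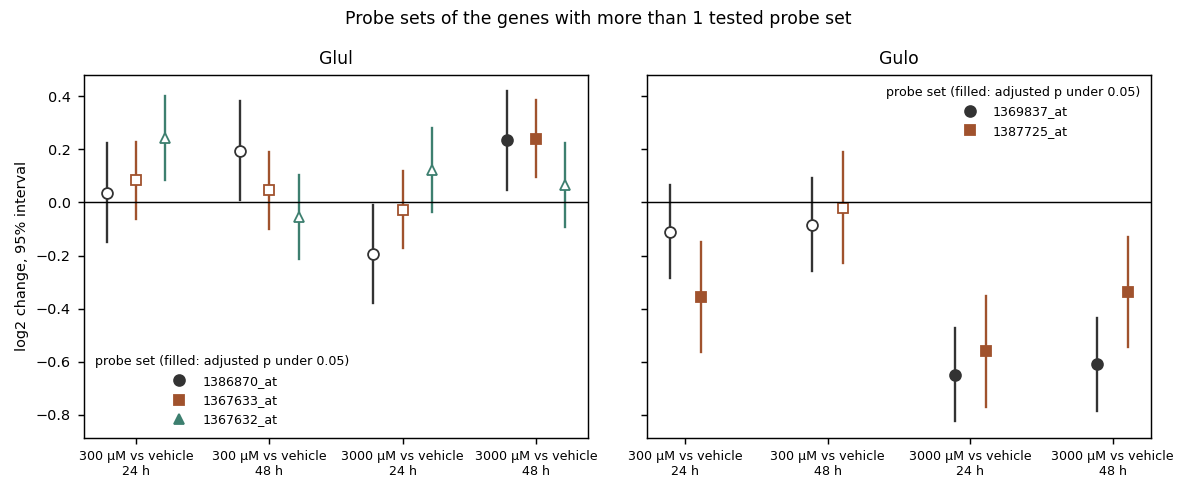
Log2 change against vehicle on each tested probe set of the marker genes that have more than 1 tested (Glul with 3, Gulo with 2), with 95% intervals from limma. At 3000 µM and 48 h the 3 Glul probe sets read 0.23, 0.24 and 0.06, and the 2 Gulo probe sets read -0.61 and -0.34.

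Hsd17b13, an enzyme of the lipid droplet surface, fell furthest of the 10 genes. Its signals at 24 h were 9975, 18616, 18516, 10804 and 13316 in vehicle wells, 9248, 8408, 7091, 9354 and 9935 with 300 µM, and 5119.8, 4967, 4549, 5301 and 6342 with 3000 µM. The 3 ranges did not overlap and stepped down with dose, although the highest 300 µM well and the lowest vehicle well were close. Hsd17b13 signals at 48 h were 13092, 14107, 11551, 16153 and 14432 in vehicle wells, 8246, 12857, 12582, 9812 and 11497 with 300 µM, and 5647, 5188, 5810.4, 4375 and 4354 with 3000 µM. Here 2 of the 300 µM wells reached into the vehicle range.

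limma gave log2 changes for Hsd17b13 of -0.65 ± 0.15 (adjusted p 0.00957) with 300 µM and -1.40 ± 0.15 (adjusted p 1.02e-08) with 3000 µM at 24 h. At 48 h the change was -1.45 ± 0.15 with 3000 µM (2.74-fold lower, adjusted p 2.56e-09) and -0.34 with 300 µM (adjusted p 0.323). The lipid droplet list, 10 genes tested with Hsd17b13 among them, had 7 lower and none higher with 3000 µM at each time, with medians of -0.57 and -0.46. Plin5, a droplet coat protein of oxidative tissues, was lower, at -2.29 at 24 h and -1.69 at 48 h. Plin2, a major droplet coat protein of hepatocytes, was lower at 24 h (-0.61), and Cidec, which fuses droplets, was lower at 48 h (-0.56). With 300 µM 4 of 10 were lower and 1, Fitm2, was higher at 24 h, beside 1.27% lower and 1.72% higher of all probe sets. None of the 10 passed with 300 µM at 48 h, beside 0.723% lower and 0.813% higher. There 1973 of all probe sets had an unadjusted p under 0.05.

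Pigr, the polymeric immunoglobulin receptor that carries IgA into bile, is made by hepatocytes in the rat. Its signals at 24 h were 105194, 91389, 77559.6, 81129 and 78497 in vehicle wells, 70700.2, 60104, 73306, 58188 and 71505 with 300 µM, and 55394, 69000.0, 67362, 61756 and 64491 with 3000 µM. All treated wells were below all vehicle wells, and the doses overlapped. limma gave -0.37 ± 0.093 with 300 µM (adjusted p 0.0183) and -0.44 ± 0.093 with 3000 µM (adjusted p 0.000338). The 300 µM call was lost in 5 of 21 alternative settings, among them leaving out vehicle well 1, the highest well and an array with high hybridisation controls (-0.30, adjusted p 0.0776). Quantile normalization brought the 300 µM change to -0.20 (limma, adjusted p 0.0675) and the 3000 µM change to -0.22, still a call. Only 38 probe sets had a higher mean, so these signals are near the top of the scale, where arrays can understate a change. Quantile normalization made the 24 h changes smaller, however, and which scaling is nearer the true change was not tested.

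At 48 h Pigr signals were 67718, 83109.8, 67084, 76486 and 68399.9 in vehicle wells, 78005, 76727, 74196, 69985 and 68515 with 300 µM, and 65991, 51306, 60625, 79806 and 64572 with 3000 µM. Well 4 of the 3000 µM group, 1 of the arrays with high hybridisation controls, lay inside the vehicle range and the other 4 lay below it. The 3000 µM change was -0.18 (limma, adjusted p 0.127) with that well and -0.26 (adjusted p 0.0198) without it. Cholangiocytes also make Pigr. Of their markers, Krt19, Krt7, Spp1, Cftr and Cd24 were below the filter in every group, and Epcam was lower with 3000 µM at 48 h (-0.14) and did not pass at 24 h (0.05). Their part in the Pigr values was not tested.

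Cyp2f4, the rat counterpart of mouse Cyp2f2 and a P450 that oxidises naphthalene, fell with 3000 µM in wells that stood clear of all others. Signals at 24 h were 9524, 10082, 9412, 10451 and 10228 in vehicle wells, 10437, 8952, 9309.8, 9489.5 and 9912 with 300 µM, and 6729, 6604, 6196, 6736 and 6373 with 3000 µM. After 48 h Cyp2f4 had 8627, 9395, 8255, 9464 and 8473 in vehicle wells, 8017, 8782, 9099, 9174 and 8741 with 300 µM, and 5786, 5569.9, 6642, 4403 and 4483 with 3000 µM. limma gave -0.61 ± 0.076 (adjusted p 1.21e-07) and -0.73 ± 0.076 (adjusted p 1.51e-09) for 3000 µM. With 300 µM the changes were -0.05 (95% interval -0.20 to 0.11) and -0.01 (-0.17 to 0.14).

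Other P450 genes of the same family, which were not counted as zone markers, had mixed dose patterns, and some fell with 3000 µM as Cyp2f4 did. Cyp2c6v1 was higher at both doses, with log2 changes at 24 h and 48 h of 2.04 and 2.25 with 300 µM and of 1.68 and 1.72 with 3000 µM. Cyp2a1, a steroid hydroxylase, was higher with 300 µM at 24 h (0.49) and lower with 3000 µM (-0.80 at 24 h and -1.14 at 48 h). Cyp2a2 was lower with 3000 µM (-0.41 and -0.71). Of these 5 tested genes, 1 was higher and 2 were lower with 3000 µM at each time. With 300 µM 3 were higher and none lower at 24 h, beside 1.72% higher and 1.27% lower of all probe sets. At 48 h 2 were higher and 1 lower with 300 µM, beside 0.813% and 0.723%. Against 300 µM, 3000 µM gave 3 lower and 1 higher of these 5 at 24 h, beside 12.2% lower and 13.9% higher of all probe sets. At 48 h it gave 4 lower and 1 higher, beside 16.9% and 17.9%. With 300 µM neither Cyp2e1 nor Cyp2f4 was higher at either time.

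Cdh1, E-cadherin, the adhesion protein of adherens junctions, is concentrated on periportal hepatocytes. Its signals at 24 h were 9599.5, 9042, 10900.5, 11014 and 11239.6 in vehicle wells, 9172, 9543, 9789, 8812 and 7760.1 with 300 µM, and 7334, 7418, 6795, 7374 and 6664 with 3000 µM. Cdh1 at 48 h had 9802, 9054, 9915, 10965 and 11482 in vehicle wells, 8261, 8942, 8244, 7749.9 and 7432 with 300 µM, and 7091, 5631, 5565, 5383 and 5531 with 3000 µM. At 48 h the 3 ranges did not overlap and stepped down with dose, and 3000 µM well 1 stood above the other 4 of its group.

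limma gave log2 changes for Cdh1 of -0.54 ± 0.077 (adjusted p 1.38e-06) at 24 h and -0.81 ± 0.077 (adjusted p 2.62e-10) at 48 h with 3000 µM. With 300 µM at 48 h it was -0.33 ± 0.077 (adjusted p 0.0164), a call lost in 5 of 21 alternative settings with an adjusted p of up to 0.138, among them leaving out well 4 or 5 of either group, and at 24 h -0.20 (adjusted p 0.192). Epithelial cells of bile ducts make Cdh1 too. The summed cholangiocyte markers, mostly Epcam, were 10277 to 11311 with 3000 µM against 11780 to 12556 in vehicle wells at 48 h, where Epcam was lower (-0.14), and 9504 to 10700 against 9049 to 10610 at 24 h. Their part in the Cdh1 values was not tested. Of 8 adherens junction genes, Cdh1 among them, 5 were lower and 1 higher (Afdn, 0.29, the single such gene) with 3000 µM at 24 h. At 48 h 5 were lower and none higher. Cdh2, N-cadherin, the other classical cadherin of hepatocytes, was lower at both times (-0.54 and -0.76), as were Jup, plakoglobin (-0.53 and -0.63), and Nectin2 (-0.47 and -0.57). The list's medians were -0.43 and -0.53.

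Hal, histidine ammonia-lyase, the entry enzyme of histidine breakdown, was the periportal gene that rose. Its signals at 24 h were 1173, 1471, 1310.5, 1078 and 1118 in vehicle wells, 1000.2, 983, 951, 1009 and 894 with 300 µM, and 1291, 1108, 1200.1, 1028 and 1012 with 3000 µM. At 48 h they were 840.0, 728, 829.7, 892 and 751 in vehicle wells, 951, 743, 822, 834 and 814 with 300 µM, and 1072, 1312, 1145, 1285 and 988 with 3000 µM. At 24 h the 300 µM wells lay below all vehicle wells, and at 48 h the 3000 µM wells lay above all others.

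With 3000 µM at 48 h Hal was 1.43-fold higher (log2 change 0.52 ± 0.10, limma adjusted p 0.000101), and at 24 h the change was -0.12 (adjusted p 0.401). The difference between these was 0.64 (interaction, adjusted p 0.0101). Hal fell with time in vehicle wells (-0.60, limma adjusted p 0.000173), whereas the 3000 µM wells at 48 h and 24 h differed by 0.04 (adjusted p 0.858). With 300 µM at 24 h the change of -0.34 did not pass (adjusted p 0.065). Of the later enzymes of the same pathway, Ftcd, which passes the formimino group to folate, was lower with 3000 µM (-1.24 at 24 h and -1.83 at 48 h), and Uroc1, urocanase, was lower at 24 h (-0.36). The histidine list of 3 tested genes, Hal among them, therefore had 2 lower and 0 higher at 24 h, and 1 higher and 1 lower at 48 h.

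The doses were also compared directly, using the same 3000 µM wells as above. Against 300 µM, 3000 µM gave 5 lower genes at 24 h (Gulo, Nt5e, Hsd17b13, Cyp2f4 and Cdh1) and 1 higher (Rgn), beside 12.2% lower and 13.9% higher of all probe sets. Gulo at 24 h was -0.54 on its main probe set, but its second gave -0.20 and did not pass (limma, adjusted p 0.147). At 48 h the same 5 genes were lower, and Rgn and Hal were higher, beside 16.9% lower and 17.9% higher. Hsd17b13 changed by -0.74 at 24 h (adjusted p 0.000278) and -1.11 at 48 h (adjusted p 5.26e-07), Rgn by 0.48 (adjusted p 0.000731) and 0.97 (adjusted p 6.14e-09) in limma. On their main probe sets Cyp2e1, Glul and Pigr were not called between the doses at either time. The second Glul probe set was higher at 48 h (0.20, limma adjusted p 0.0312), where the main one gave 0.04. For Pigr the difference was -0.07 at 24 h (95% interval -0.26 to 0.12) and -0.20 at 48 h (-0.39 to -0.01, limma adjusted p 0.0915). The 48 h difference passed in 4 of 21 alternative settings, among them without 3000 µM well 4 (-0.28, adjusted p 0.0134).

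Culture time alone moved a pericentral and a periportal gene. In vehicle wells at 48 h against 24 h, Cyp2e1 and Hal were lower and no main probe set was higher, beside 3.15% lower and 4.05% higher of all probe sets. The third Glul probe set was higher (0.28, limma adjusted p 0.0222), whereas the main one gave -0.24 (adjusted p 0.115). The main Gulo probe set changed by 0.26 in vehicle wells without passing, and it passed in 4 of 21 alternative settings. With 300 µM, Cyp2e1 was lower and Gulo higher (0.29, limma adjusted p 0.0439), beside 2.33% lower and 2.86% higher. The interaction of dose and time gave no call for Gulo at either dose. The Gulo call at 300 µM was lost in 10 of 21 alternative settings, with an adjusted p of up to 0.177, and its second probe set gave 0.51 (limma, adjusted p 0.00141). With 3000 µM, Cyp2e1, Cyp2f4 (-0.30, adjusted p 0.00676) and Cdh1 (-0.29, adjusted p 0.00909) were lower, and Gulo (0.30, adjusted p 0.0162) and Rgn (0.57, adjusted p 0.000245) were higher, beside 7.53% lower and 6.42% higher. Here the Gulo call was lost in 5 of 21 alternative settings (adjusted p up to 0.107), among them without 3000 µM 48 h well 4, and the Cyp2f4 call in 2 (up to 0.102). The third Glul probe set was again higher (0.22, limma adjusted p 0.0498).

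Whether a dose acted differently at 48 h than at 24 h was tested as an interaction. For 3000 µM, Rgn and Hal had the more positive effect at 48 h and none the more negative, beside 1.38% with a more positive and 2.77% with a more negative effect among all probe sets. The main Glul probe set gave 0.43 (limma, adjusted p 0.0534), the second 0.27 (adjusted p 0.127) and the third -0.06 (adjusted p 0.839). For 300 µM no member passed, beside 0% of all probe sets in either direction, although 1251 had an unadjusted p under 0.05 and alternative settings called 0 to 3. The highest 300 µM difference among the members was that of Pigr, 0.40 (adjusted p 0.476).

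For a view of zone against zone, the log2 signals of the 5 genes of a zone, each taken relative to the vehicle mean of its time, were averaged in every well. With 300 µM at 24 h the pericentral mean was -0.22 ± 0.079 and the periportal mean -0.32 ± 0.044 (SD over 5 wells). With 3000 µM at 24 h they were -0.40 ± 0.041 and -0.62 ± 0.021. Both zone means were thus below vehicle. The pericentral minus the periportal mean was 0.13 to 0.30 in the 3000 µM wells at 24 h, against -0.17 to 0.12 in all vehicle wells of both times. The periportal mean held Hsd17b13 at -1.40 and the pericentral mean held Rgn at 0.28, each far from the other genes of its zone. Both values widen this gap, and the gap without these genes was not computed. The order of the zones turned with the summary, since by medians over the 5 genes the pericentral value was the lower at 24 h, -0.65 against -0.54.

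At 48 h with 300 µM the zone means were -0.099 ± 0.037 (pericentral) and -0.12 ± 0.054 (periportal). With 3000 µM at 48 h they were -0.13 ± 0.093 and -0.53 ± 0.098, and the gap was 0.18 to 0.62 over the 5 wells. These are means over 5 chosen genes and carry no p. The pericentral mean at 48 h held Rgn at 1.00 and Nt5e at -0.79, so it sums genes that moved in opposite directions. So does the periportal mean with 3000 µM at 48 h, which held 3 genes called lower and 1, Hal, called higher. The zone medians, -0.50 and -0.73, were closer than the zone means.

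**Figure D4:**
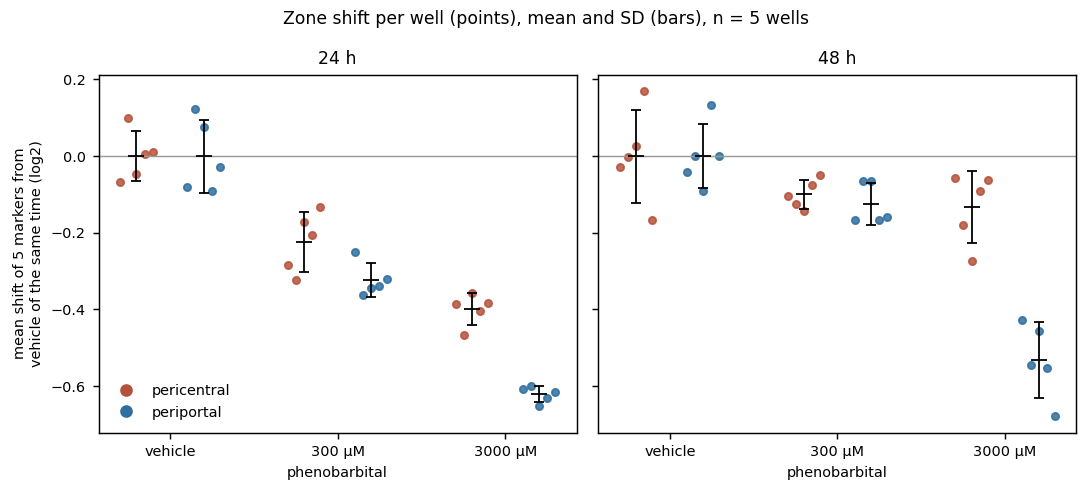
Mean log2 signal of the 5 pericentral and the 5 periportal genes in every well, relative to the vehicle mean of the same time, with the group mean and SD over 5 wells. At 3000 µM and 48 h the pericentral wells lie at -0.27 to -0.06 and the periportal wells at -0.68 to -0.43.

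How closely genes tracked each other varied widely both within a zone and between zones. Over the 30 wells, the median Pearson r of log2 signals was -0.029 for the 10 pericentral pairs, 0.44 for the 10 periportal pairs and 0.37 for the 25 pairs between zones. The highest r, 0.88, joined a pericentral with a periportal gene, Nt5e with Hsd17b13, and the lowest, -0.80, was that of Rgn with Cyp2f4. All genes were read on the same 30 arrays, so r over wells includes shared differences between doses and times. After the group means were taken out, the medians were -0.064, -0.096 and 0.020 in the same order.

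**Figure D5:**
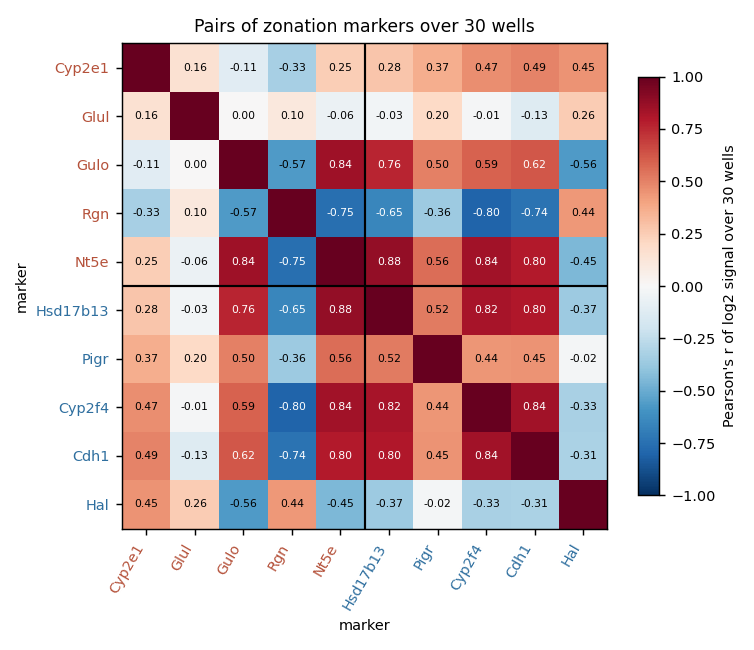
Pearson r of log2 signal over 30 wells for each pair of the 10 marker genes, pericentral genes first. Rgn is negative with most genes and lowest with Cyp2f4 (-0.80), and the highest cell is Nt5e with Hsd17b13 (0.88).

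Longer lists of zonated genes were counted in the same comparisons. Of 21 listed pericentral and beta-catenin target genes, 15 were on the array and 11 were tested, and with 3000 µM 4 were lower at 24 h and 5 at 48 h, with none higher. Their medians were -0.24 and -0.28. Cyp7a1, the rate-limiting enzyme of bile acid synthesis, was lower with 3000 µM (-1.28 at 24 h and -1.57 at 48 h) but higher with 300 µM (1.81 and 1.02), the only call of this list at that dose. Cyp1a2, an aryl hydrocarbon receptor target that metabolises caffeine, was lower with 3000 µM (-0.48 and -0.34). At 48 h Znrf3, a beta-catenin target that dampens Wnt signalling, was lower (-0.51), as was Oat, ornithine aminotransferase (-0.50). Cyp1a2 was also lower at 48 h than at 24 h in vehicle wells (-1.25), as was Cyp2e1. In that comparison 3 of these 11 genes were lower (median -0.06), as were 3 of the 14 periportal genes counted next (median -0.20). Of the 5 P450 genes not counted as zone markers 4 were lower (median -0.38). None of these lists held a higher gene, beside 3.15% lower and 4.05% higher of all probe sets.

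Of 18 listed periportal genes, 15 were on the array and 14 tested. With 3000 µM 11 were lower and none higher at 24 h, and 6 were lower and 2 higher at 48 h, with medians of -0.37 and -0.22. Cyp17a1, the steroid 17-alpha-hydroxylase, was lower at both times (-2.38 and -2.96), as was Fbp1, a gluconeogenic phosphatase (-0.75 and -0.97), and Otc, of the urea cycle, was lower at 48 h (-0.61). The 2 higher genes were Asl, also of the urea cycle, at 0.37, and Ctsc, a lysosomal protease, at 0.20. None of the 14 passed with 300 µM at either time. Both lists, like the 10 members, thus held more lower than higher genes at 3000 µM, and no test compared the lists.

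The genes whose log2 signal over the 30 wells was most like that of a member, by Pearson r among tested genes with 1 symbol, were as follows. Group means were not taken out here, so r includes shared differences between doses and times, and no link between the genes was tested. Cyp2e1 was most like Apoc1 (0.902) and Gpc4 (0.886), and Gulo like Ndufa4l2 (0.941) and Agtpbp1 (0.938). Rgn was most like Ddit3, the stress-induced factor CHOP, and Selenos (0.896), a selenoprotein of the endoplasmic reticulum. Nt5e was most like Pglyrp1 (0.950) and Vim (0.948), and Glul, with no close match, like Ceacam1 (0.681). Among periportal genes, Hsd17b13 was most like Auh (0.934) and Idh2 (0.933), Cyp2f4 like Pex13 and Acadvl (both 0.965), Cdh1 like Glud1 (0.940), Pigr like Ambp (0.862) and Hal like Il1rap (0.759).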

How the data were processed

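The labels' protocols describe total RNA from each well, labelled as biotin cRNA, and hybridised to an Affymetrix GeneChip rat expression array. The authors deposited linear probe set intensity values, which the submitters' processing notes tie to MAS5, and the version and scaling target are not given in the sources used here. The mean signal of each array, without the outer 2% at each end, was 1500.6 to 1500.7, so arrays had been scaled. No detection calls were used. Of 31099 probe sets, 57 controls were left out, and names came from the platform annotation (20826 probe sets with 1 symbol, 436 with several, 9780 with none). Intensities were taken to log2 with no added constant. A probe set was tested where its highest group mean reached the median of all values, a signal of 384 (log2 8.58), which left 16596. limma 3.58.1 in R 4.3.3 fitted 6 group means over 30 arrays (lmFit, contrasts.fit, eBayes with trend and robust), 2-sided, with Benjamini-Hochberg adjustment over all tested probe sets within a comparison, and an adjusted p under 0.05 counted as a call. The fits were tested on simulated data. The members, lists and alternatives were chosen with earlier results of these data known. At most 4 called genes a list and comparison were named, those with the greatest change, plus single genes named after their values were seen where a count was 5 or fewer. The 2 genes most like a member were taken by r over wells. Comparisons against vehicle at 1 time share vehicle wells. The number of arrays limits the precision. Alternatives covered scaling, an added constant of 32, filters, the variance model, array weights, fewer arrays, second probe sets and a replicate block.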

Additional observations from a re-analysis of the deposited data

Results flagged for a closer look

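A single well stood away from the rest of its group for 2 genes. Cyp2e1 in vehicle well 5 at 48 h had a signal of 884, against 1371 to 1624 in the other 4 wells. On the log2 scale, on which the test was run, its gap was 0.721 of the group's range. Cdh1 in 3000 µM well 1 at 48 h had 7091, against 5383 to 5631, a gap of 0.837 of the range on the log2 scale. The critical value of Dixon's test for 5 samples is 0.71, 2 of 78 groups tested passed it, and chance alone passes about 5% of groups.

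The effect of 3000 µM differed between 48 h and 24 h for 2 genes. For Rgn the difference was 0.727 on the log2 scale (limma interaction, adjusted p 0.00518), with all 5 wells at 48 h above all vehicle wells. For Hal it was 0.639 (adjusted p 0.0101), with all 5 wells at 48 h above all vehicle wells and ranges that overlapped at 24 h.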

How the results depend on the processing

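No called value of a member changed sign under an alternative (0 of 965), and 61 of 1545 uncalled values did. The count of called members moved in a few comparisons. With 300 µM against vehicle at 48 h it was 1, and 0 with arrays centred on their medians, 2 with array weights, 2 without the 2 arrays with high hybridisation controls, and 0 to 1 when an array was left out (0 without vehicle well 4, 300 µM well 4 or 300 µM well 5). For 300 µM at 48 h against 24 h it was 2, and 1 with medians centred, with no filter or with neither trend nor robust estimation, and 1 to 2 with an array left out. For 3000 µM at 48 h against 24 h it was 5, and 3 with array weights or with only the compared groups in the fit. For the interaction of 3000 µM with time it was 2, and 2 to 4 with an array left out (4 without 3000 µM 48 h well 1). Calls were lost for Rgn with 3000 µM at 24 h in 10 of 21 settings, Glul with 3000 µM at 48 h in 9, Pigr with 300 µM at 24 h in 5 (adjusted p up to 0.0801) and Hsd17b13 with 300 µM at 24 h in 1 (0.0648, with only the compared groups in the fit). Between the doses at 24 h Gulo lost its call in 1, on its second probe set. Calls were gained for Cyp2e1 with 300 µM at 48 h in 3 of 21 settings, among them without vehicle well 5. Pigr with 3000 µM at 48 h gained a call in 3, among them quantile normalization (limma, adjusted p 0.000514). Among other gains, Hal with 300 µM at 24 h passed in 3 and Glul between the doses at 24 h in 5. Gulo with time in vehicle wells passed in 4, and Glul in the 3000 µM interaction in 8 of 31.

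Zone means, for which leaving out an array or the 2 arrays was chosen after seeing the data, moved beyond 1 SD as follows. The periportal mean with 3000 µM at 24 h was -0.62, and -0.58 under quantile normalization, -0.56 with medians centred and -0.64 to -0.59 with an array left out. The pericentral mean there was -0.40, and -0.33 with medians centred and -0.35 with second probe sets, and the gap was 0.22, and 0.16 under quantile normalization. The pericentral mean with 300 µM at 48 h was -0.099, and -0.14 to -0.057 with an array left out.

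Over all probe sets, calls with 300 µM numbered 496 at 24 h (227 with medians centred, 325 to 444 with an array left out, the lowest without 300 µM well 2 or 4) and 255 at 48 h (124 with medians centred, 615 with array weights). The other counts that moved by over 1.5 times were 1195 for vehicle with time (735 at the lowest), 862 for 300 µM with time (549), 2316 for 3000 µM with time (1186) and 688 for its interaction (232, and 410 at the lowest with an array left out). Running numbers in the titles form 5 sets of 6 wells, 1 a group. Deviations of wells with the same number had a median r of 0.0026 and 9 of 30 wells correlated best with their own number, so the numbers were not read as pairs. With them as a replicate block, 7 members instead of 6 were called between the doses at 24 h and 3 instead of 2 in the 3000 µM interaction, in both cases with Glul added (Glul adjusted p 0.0448 and 0.0439). Signals near the filter of 384 are imprecise, Pigr is near the top of the scale, and no array gives a count depth.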
